A study of Mus musculus with 6 samples.

Results

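The NF-κB subunits and feedback inhibitors were 8 genes, Nfkb1, Rel, Relb, Nfkbia, Nfkbid, Nfkbiz, Bcl3 and Tnfaip3, chosen by gene symbol from the 32285 features of the deposited matrices. The rule used symbols and no measured value, although the genes were proposed with earlier results of these data known, and each of the 8 symbols matched 1 feature. The matrices came from single-cell RNA sequencing of α/β T cells sorted from kidneys of wild-type male C57BL/6J mice aged 7 to 8 weeks, which were left normal (control group) or subjected to ischemia-reperfusion (IR group) by clamping both renal pedicles for 30 min. Serum creatinine was read at 24 h, and the time from reperfusion to the sort of these cells is not given in the sources used here. In each group the T cells were separated into CD4, CD8 and double negative (DN, lacking both CD4 and CD8) cells, which gave 6 libraries with 1 library per group. Whether animals were pooled for a library is not given, so no value below has a replicate check and no test was run.

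NF-κB is a family of transcription factors that act as pairs of subunits. Nfkb1 encodes p105, which is processed to p50, while Rel encodes c-Rel and Relb encodes RelB. In a resting T cell IκB proteins hold the pairs in the cytoplasm, and signals from the T cell receptor or from TNF-family receptors lead to IκB degradation and to entry of the pairs into the nucleus. Among the first genes then transcribed are the inhibitors themselves: Nfkbia encodes IκBα, which withdraws the pairs from DNA, and Tnfaip3 encodes A20, a ubiquitin-editing enzyme that shuts off the signal upstream. Nfkbid (IκBNS), Nfkbiz (IκBζ) and Bcl3 encode nuclear IκB proteins that bind subunits on DNA and can raise or lower transcription of chosen targets. Relb and the related subunit gene Nfkb2 belong to the slower, noncanonical arm.

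The promoters are shown because binding of NF-κB to the promoters of its own inhibitors is the textbook loop of this pathway. RefSeq promoter windows (GRCm38.p6, from 250 bases before to 50 bases after a transcription start) were at hand for 5 of the 8 genes, in 8 windows. They were searched on both strands for the κB consensus, which is 3 G, a purine, any 2 bases, 2 pyrimidines and 2 C, and 5 of the 8 windows held it, 1 for each of the 5 genes. Of all 32851 promoter windows in the same table, 8.46% held a match, and 50.8% held a looser motif of 3 G, any 5 bases and 2 C, which contains the consensus. Each of the 5 windows is printed below 5′ to 3′ from 250 bases before to 25 bases after the start, with capitals marking the bases of consensus matches on either strand.
Rel, chr11:23770945-23771219, minus strand: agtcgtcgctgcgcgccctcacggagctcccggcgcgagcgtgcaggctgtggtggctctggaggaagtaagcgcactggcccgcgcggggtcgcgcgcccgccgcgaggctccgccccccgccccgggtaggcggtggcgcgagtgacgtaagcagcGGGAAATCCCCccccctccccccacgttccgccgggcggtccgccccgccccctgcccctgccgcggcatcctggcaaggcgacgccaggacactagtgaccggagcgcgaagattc
Nfkbia, chr12:55492623-55492897, minus strand: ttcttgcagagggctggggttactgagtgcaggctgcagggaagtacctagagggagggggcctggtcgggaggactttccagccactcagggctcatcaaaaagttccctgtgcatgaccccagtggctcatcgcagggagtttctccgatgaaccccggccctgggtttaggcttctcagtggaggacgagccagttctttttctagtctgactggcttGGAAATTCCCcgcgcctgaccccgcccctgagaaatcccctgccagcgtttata
Nfkbid, chr7:30422156-30422430, plus strand: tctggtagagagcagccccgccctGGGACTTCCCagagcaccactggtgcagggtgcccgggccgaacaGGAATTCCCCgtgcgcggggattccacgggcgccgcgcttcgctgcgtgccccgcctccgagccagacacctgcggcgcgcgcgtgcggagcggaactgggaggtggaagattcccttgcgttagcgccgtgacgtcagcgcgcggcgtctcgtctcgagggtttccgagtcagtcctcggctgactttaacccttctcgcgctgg
Bcl3, chr7:19822731-19823005, minus strand: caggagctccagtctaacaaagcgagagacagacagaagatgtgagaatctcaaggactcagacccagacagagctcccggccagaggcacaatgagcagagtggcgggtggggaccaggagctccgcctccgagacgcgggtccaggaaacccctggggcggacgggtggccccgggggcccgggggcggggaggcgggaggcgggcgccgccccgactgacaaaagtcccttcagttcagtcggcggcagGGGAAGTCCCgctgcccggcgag
Tnfaip3, chr10:19015386-19015660, minus strand: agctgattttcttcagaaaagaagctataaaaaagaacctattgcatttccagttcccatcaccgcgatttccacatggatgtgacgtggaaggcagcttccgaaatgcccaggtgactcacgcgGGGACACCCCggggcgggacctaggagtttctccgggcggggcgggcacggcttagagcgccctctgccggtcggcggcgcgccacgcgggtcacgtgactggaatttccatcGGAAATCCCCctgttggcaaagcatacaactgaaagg

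The match nearest a start lay 3 bases into the Bcl3 transcript, and those of Tnfaip3 and Nfkbia began at -12 and -29. In Rel, 2 overlapping matches began at -92 and -91, and in the Nfkbid window matches began at -226 and -181. A second Tnfaip3 match began at -125. The remaining 3 windows, of Nfkbid and Tnfaip3, held no match to the consensus. A match describes letters in a window and no factor binding was measured.

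On GRCm38 with GENCODE M21 gene models, Nfkbia (ENSMUSG00000021025) spanned chr12:55489410-55492647 with 1628 bases of intron, and Tnfaip3 (ENSMUSG00000019850) spanned chr10:19000910-19015657 with 7522. Bcl3 (ENSMUSG00000053175) lay at chr7:19808462-19822770 and Relb (ENSMUSG00000002983) close by at chr7:19606217-19629438, with 11834 and 19337 bases of intron. Nfkbid (ENSMUSG00000036931) lay at chr7:30421732-30428746 and Nfkbiz (ENSMUSG00000035356) at chr16:55811375-55838899, with 4669 and 22507. Rel (ENSMUSG00000020275) at chr11:23736847-23770970 held 26658 bases of intron, and Nfkb1 (ENSMUSG00000028163) at chr3:135584655-135691547 was the longest of the 8 genes, with 94832. Bcl3 overlapped 2 antisense genes, Gm16175 over 2264 bases and Gm16174 over 2073 bases, which bears on Bcl3 only if strand was ignored. The study's methods name default settings of Cell Ranger, which count reads of the sense strand. Nfkb1 overlapped ENSMUSG00000106149, a gene model on the same strand that is not among the features, over 3897 bases, so reads there cannot be told apart from Nfkb1 reads.

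After cell filters 47939 T cells remained, between 8898 and 9305 in each control library and 10108, 6332 and 4042 in the IR CD4, CD8 and DN libraries. Depth differed with the condition. Pooled retained counts of unique molecular identifiers (UMIs) were 45553526 to 60769969 per control library and 4386054 to 15474171 per IR library, and the median T cell held 6626 to 8364.5 UMIs in control and 1450.5 to 2355.5 in IR libraries. The files of the control libraries name Cell Ranger 5.0.1 and those of the IR libraries 6.0.1, so condition, software version and depth cannot be told apart by design. Cd4 stood at 210 and 146 CPM (UMIs of a gene scaled to a common library total of retained UMIs, per 1000000) in the control and IR CD4 libraries and at or below 0.466 CPM elsewhere, while Cd8a stood at 867 and 400 CPM in the CD8 libraries and at or below 0.247 elsewhere, as the sort labels state. Between 26 and 62 T cells per library, 0.376% to 0.686% of each, shared a barcode with another library of the same condition, and leaving them out moved the Nfkbia ratios to 2.38, 1.57 and 2.21 on the log2 scale, against 2.39, 1.57 and 2.21 with them.

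Levels are given below as CPM over all T cells of a library with exact 95% Poisson intervals, and differences as log2 ratios with exact 95% intervals for the ratio of 2 counts. These intervals cover counting error only. Each gene is compared with itself across libraries.

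The gene that differed most between the conditions was Nfkbia, the IκBα gene. Its level was 439 CPM (433 to 445) in control CD4, 436 (430 to 442) in control CD8 and 462 (457 to 467) in control DN T cells. It was 2297 (2273 to 2321) in IR CD4, 1295 (1268 to 1323) in IR CD8 and 2142 (2099 to 2186) in IR DN T cells. The 3 control libraries therefore lay within 1.06-fold of each other, all 3 IR libraries lay above them, and IR CD8 cells lay between. The log2 ratio of IR to control was 2.39 (2.36 to 2.41) in CD4, 1.57 (1.53 to 1.61) in CD8 and 2.21 (2.18 to 2.25) in DN T cells, which is 5.23-fold, 2.97-fold and 4.64-fold.

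Tnfaip3, the A20 gene, was also higher in IR in each subset, with the largest ratio in DN rather than CD4 T cells. Its levels in the control CD4, CD8 and DN libraries were 530, 431 and 398 CPM, and in the IR libraries 1237, 702 and 1335 CPM. No intervals of neighbouring libraries overlapped. The log2 ratio of IR to control was 1.22 (1.20 to 1.25) in CD4, 0.70 (0.66 to 0.75) in CD8 and 1.75 (1.71 to 1.79) in DN T cells. DN T cells held the lowest level of the control libraries and the highest of the IR libraries.

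**Figure D1:**
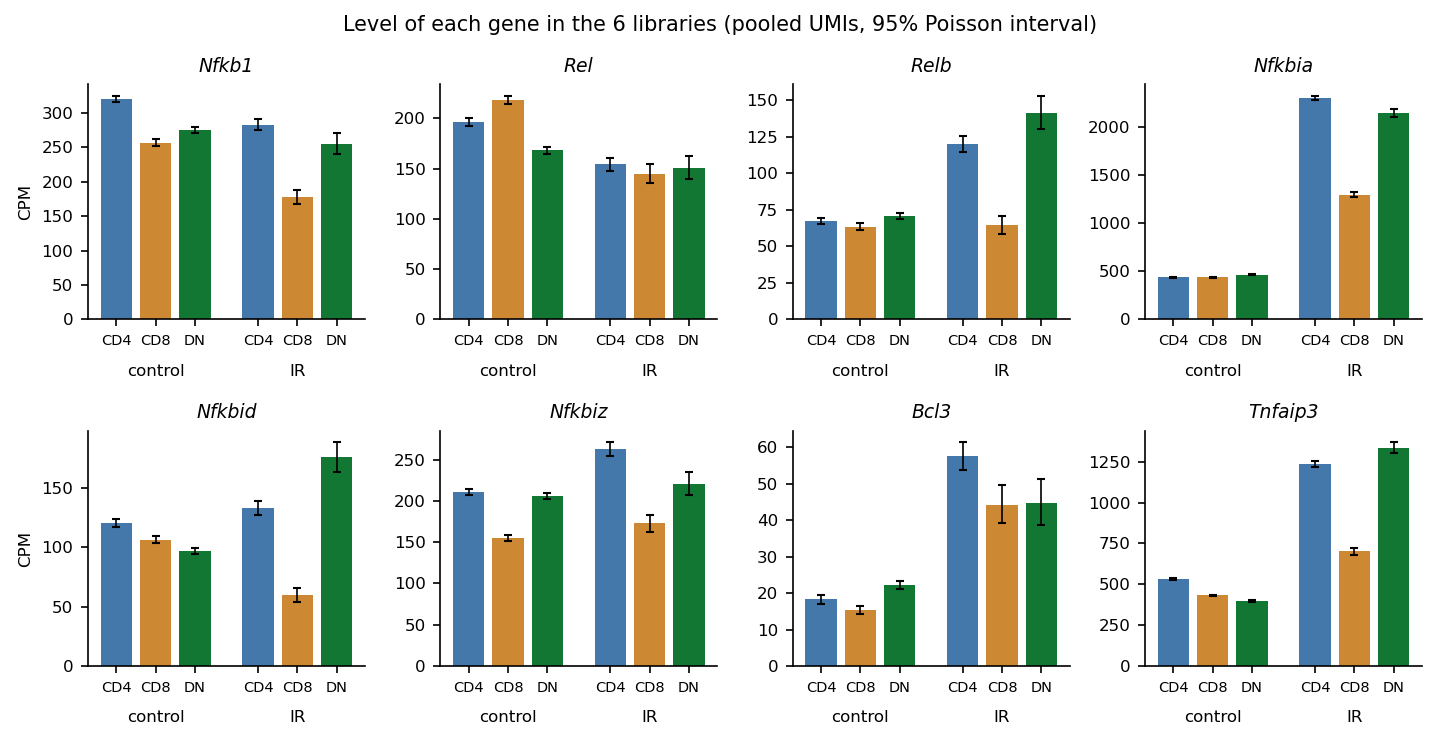
Level of each of the 8 genes in CPM (linear axis from 0, a scale of its own for each gene) in the 6 libraries, with bars for pooled T cells and error bars for the exact 95% Poisson interval. Nfkbia, Bcl3 and Tnfaip3 were higher in all 3 IR libraries than in any control library (Nfkbia 1295 to 2297 against 436 to 462 CPM), while Nfkb1 and Rel were not.

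Bcl3 had the lowest counts of the 8 genes, between 196 UMIs in IR DN and 1348 in control DN T cells. It is known as a partner of p50 and p52 that can act as a coactivator. Its levels were 18.2 CPM (17.1 to 19.5), 15.3 (14.2 to 16.5) and 22.2 (21.0 to 23.4) in the control CD4, CD8 and DN libraries. In the IR libraries they were 57.5 (53.7 to 61.4), 44.1 (39.1 to 49.5) and 44.7 (38.6 to 51.4). The intervals of IR CD8 and IR DN overlapped, and every IR library lay above every control library. The log2 ratio of IR to control was 1.66 (1.52 to 1.79) in CD4, 1.52 (1.32 to 1.72) in CD8 and 1.01 (0.79 to 1.23) in DN T cells, the last with an interval that reaches below 2-fold and a value of 0.97 with TMM scaling factors.

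The other nuclear IκB genes behaved differently from Bcl3. Nfkbid, which encodes IκBNS and is needed for full c-Rel-dependent responses in T cells, stood at 121, 106 and 97.3 CPM in control and at 133, 59.6 and 176 CPM in the IR CD4, CD8 and DN libraries. Its ratio of IR to control was below 1 in CD8, at -0.84 on the log2 scale (-0.99 to -0.69), and above 1 in DN, at 0.85 (0.74 to 0.96), with 0.14 (0.07 to 0.22) in CD4, where it was -0.21 with the removed features kept in the totals and -0.09 after centring by intronic length. IR CD8 T cells thus had the lowest and IR DN T cells the highest Nfkbid level of the 6 libraries, and no intervals of neighbouring libraries overlapped. Nfkbiz, the IκBζ gene, varied little, with 211, 155 and 206 CPM in control and 263, 173 and 220 CPM in the IR CD4, CD8 and DN libraries. Its log2 ratios of IR to control were 0.32 (0.27 to 0.37), 0.16 (0.07 to 0.25) and 0.09 (-0.00 to 0.19), all of them below 0 with the removed features kept in the totals, and the intervals of IR DN, control CD4 and control DN overlapped in that order.

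Of the subunit genes, Relb was higher in IR in CD4 and DN T cells, short of 2-fold, with overlapping levels in CD8 T cells. Its levels were 67.3 CPM (65.0 to 69.6), 63.6 (61.3 to 65.9) and 70.9 (68.8 to 73.1) in the control CD4, CD8 and DN libraries. In IR they were 120 (115 to 126) in CD4, 64.6 (58.5 to 71.1) in CD8 and 142 (131 to 153) in DN T cells. IR CD8 T cells thus overlapped the control libraries, which the other IR libraries did not. The log2 ratio was 0.84 (0.75 to 0.92) in CD4, 0.02 (-0.13 to 0.17) in CD8, of either sign over the alternatives, and 0.997 (0.87 to 1.12) in DN T cells, the last just short of 2-fold.

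Nfkb1 and Rel were no higher in IR than in control T cells of any subset as measured, though centring by intronic length, given further on, turned Nfkb1 in each subset and Rel in DN T cells, and leaving out cells with Fos turned Rel in DN T cells. Nfkb1 stood at 320, 257 and 275 CPM in control and at 283, 178 and 255 CPM in the IR CD4, CD8 and DN libraries, with log2 ratios of -0.18 (-0.23 to -0.13), -0.53 (-0.62 to -0.44) and -0.11 (-0.20 to -0.02). Rel, whose product is a main subunit of activated T cells, stood at 196, 218 and 168 CPM in control and at 154, 145 and 151 CPM in the IR CD4, CD8 and DN libraries. Its log2 ratios were -0.35 (-0.41 to -0.28), -0.59 (-0.69 to -0.49) and -0.16 (-0.27 to -0.04). The 3 IR libraries overlapped one another for Rel and lay below all 3 control libraries.

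Summed over the 3 subunit genes the levels were 583, 539 and 514 CPM in control and 557, 388 and 547 CPM in the IR CD4, CD8 and DN libraries. The sum of the 4 IκB-family genes Nfkbia, Nfkbid, Nfkbiz and Bcl3 was 789, 712 and 788 CPM in control and 2751, 1572 and 2583 CPM in IR T cells. Of the 4, Nfkbia had the largest ratio of IR to control in CD4 and DN T cells, while in CD8 T cells the intervals of Nfkbia and Bcl3 overlapped.

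Counted against a limit of 2-fold and at least 10 CPM in the higher library, which all 8 genes reached in all 7 comparisons, 3 of 8 genes were higher in IR CD4 T cells (Nfkbia, Bcl3 and Tnfaip3) where 7.72% of 9036 genes were higher by this rule, and 0 were lower where 15.1% of genes were. In CD8 T cells 2 of 8 were higher (Nfkbia and Bcl3) against 7.93% of 9110 genes, and 0 lower against 17.7%. In DN T cells 3 of 8 were higher (Nfkbia, Bcl3 and Tnfaip3) against 8.31% of 9201 genes, and 0 lower against 11.3%. The median log2 ratio of the 8 genes was 0.58 in CD4, 0.09 in CD8 and 0.93 in DN T cells, beside -0.26, -0.38 and -0.26 for all genes. Nfkbia lay at the 98.6th percentile of all log2 ratios in CD4, the 95.5th in CD8 and the 96.6th in DN T cells.

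**Figure D2:**
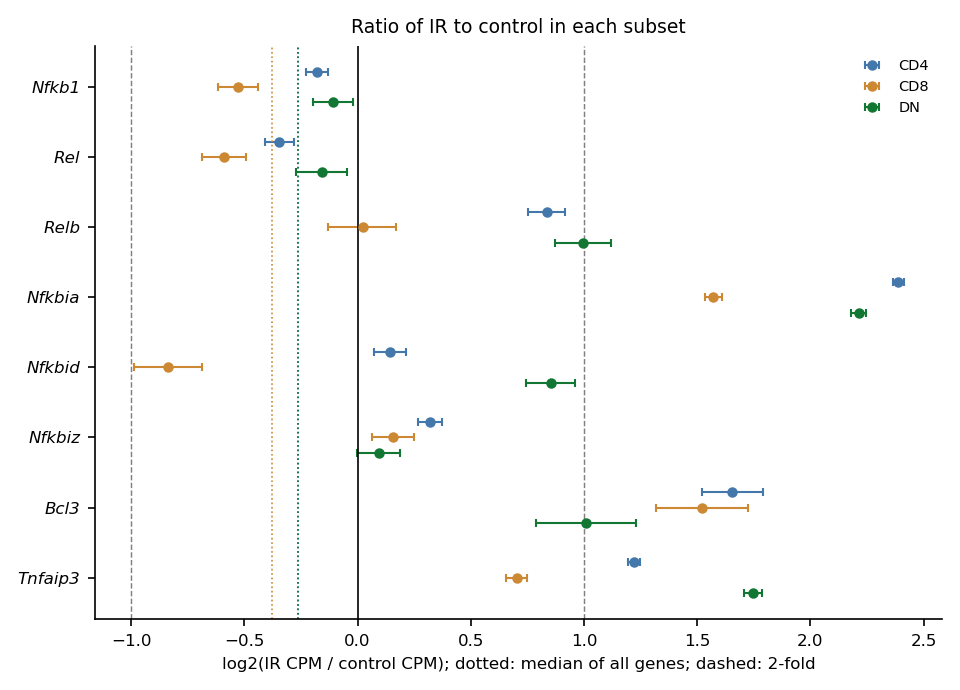
Log2 ratio of IR to control CPM for the 8 genes in CD4, CD8 and DN T cells (points, with exact 95% counting intervals), the median of all genes per subset (dotted lines, -0.26 in CD4 and DN and -0.38 in CD8) and the 2-fold limits (dashed). Nfkbia, Bcl3 and Tnfaip3 lay to the right in each subset, and the Nfkbid points were spread from -0.84 in CD8 to 0.85 in DN.

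The ratio of IR to control varied with the intron length of a gene across the transcriptome, so the values of genes of like length are given beside the members. In 20 bins of intronic length, the bin of Nfkbia had a median log2 ratio of 0.44 in CD4, 0.14 in CD8 and 0.28 in DN T cells, and the bin of Nfkb1 had -0.76, -0.76 and -0.65. With the median of its bin subtracted, Nfkbia stood at 1.95, 1.43 and 1.93, Bcl3 at 1.78, 1.84 and 1.19 and Tnfaip3 at 1.12, 0.83 and 1.76. Centred values of Nfkb1 were 0.58, 0.24 and 0.54, on the other side of 0 from the values as measured, while centred values of Rel were -0.01, -0.12 and 0.20. Relb centred at 1.04 in CD4 and 1.24 in DN T cells, past the 2-fold limit, and at 0.37 in CD8 T cells. The study's methods name default settings, which in these Cell Ranger versions leave out intronic reads, and the files used here do not record the setting. The part of gene length in these ratios was not tested further.

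Markers of other cells moved with the condition at low levels. The summed level of 10 measured genes of an 11-gene myeloid list was 102 to 110 CPM in control and 145 to 252 CPM in IR libraries, most of it Cst3 at 92.7 to 146 CPM. The neutrophil genes S100a8 and S100a9 reached 35.8 and 49.8 CPM in IR CD4 T cells, S100a8 was at 0 in control CD8 and DN, Csf3r at 0 in IR CD8 and DN, and Adgre1 at 0 in IR DN T cells. In T cells with no UMI of this list, the log2 ratio of Nfkbia was 2.42, 1.54 and 2.28 in CD4, CD8 and DN T cells that of Tnfaip3 was 1.20, 0.67 and 1.72 and that of Bcl3 was 1.64, 1.5 and 1.03. This unthinned split kept 5884, 5925 and 4818 of the control and 8167, 5555 and 3502 of the IR CD4, CD8 and DN T cells, a smaller part of the deeper control libraries. The 5-gene B cell list summed to 3.32 to 14.1 CPM in control and 18.4 to 42.1 in IR libraries, the 4-gene erythroid list to 1.16 to 1.28 and 20.1 to 27.5, and the 6-gene tubule list to at most 3.19 CPM, with Aqp2 at 0 in every IR library. The 5-gene endothelial list summed to 45.6 to 129 CPM in control and 46.5 to 102 in IR libraries. Nearly all of that sum was Pecam1, at 45.3 to 129 and 46.1 to 102 CPM, and Kdr and Plvap were at 0 in every IR library. The 4-gene NK list summed to 1.35 to 61.4 and 2.52 to 30.0 CPM. Its highest sums were those of the CD8 libraries, mostly Eomes at 60.2 CPM in control and 28.9 in IR. The 338 barcodes set aside as non-T held less Nfkbia than the T cells, with 296 CPM (205 to 413) in 35 control barcodes and 420 CPM (360 to 488) in 303 IR barcodes, beside 447 and 2026 CPM in the T cells of the same conditions.

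Shares of cells with a UMI rise with the level per cell, so more cells with Nfkbia transcripts and more transcripts per cell cannot be told apart from them. Because depth per cell differed, each cell was thinned to 700 UMIs, which left out 19 to 515 cells per control library and 125 to 927 per IR library. At that depth 21.0%, 21.7% and 21.9% of control CD4, CD8 and DN T cells held an Nfkbia UMI. In IR the shares were 63.7% (Clopper-Pearson 95% interval 62.7 to 64.6), 47.6% (46.2 to 48.9) and 61.2% (59.6 to 62.8). Cells with at least 1 Nfkbia UMI held 1.38 to 1.43 of them on average in control libraries and 2.54, 1.92 and 2.47 in the IR CD4, CD8 and DN libraries. Without thinning the shares were 64.0%, 60.0% and 70.9% in control and 78.8%, 56.4% and 68.5% in IR, so that without it the CD8 and DN shares were lower in IR.

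Tnfaip3 was found in 27.9%, 23.7% and 21.1% of control CD4, CD8 and DN T cells at 700 UMIs, and in 50.1%, 35.4% and 51.8% of IR cells. Bcl3 was found in 1.09% to 1.44% of cells of the control libraries and in 3.03% to 3.91% of cells of the IR libraries. Relb shares were 4.61%, 4.31% and 4.38% in control and 7.79%, 4.33% and 8.85% in IR, with CD8 T cells again alike in both conditions. Nfkbid was found in 7.55%, 6.88% and 6.06% of control and in 8.25%, 3.94% and 11.4% of IR CD4, CD8 and DN T cells. Nfkb1 shares were 15.4% to 19.7% in control and 11.2% to 16.7% in IR, Rel shares 10.5% to 12.9% and 8.63% to 9.26%, and Nfkbiz shares 9.42% to 12.9% and 11.5% to 15.6%. No cell type here is known to lack these genes, so a share due to free RNA in the droplets could not be set beside them. By intervals that do not overlap, 5 of the 8 genes had a higher share in IR CD4 T cells than in control, where 24.2% of 9036 genes did, and 2 a lower share, where 45.4% did. In CD8 T cells 4 had a higher share against 17.6% of 9110 genes, and 3 a lower share against 46% of genes. In DN T cells 5 had a higher share against 18.8% of 9201 genes, and 1 a lower share against 36.8%. Thinned to 500 UMIs, the higher share of Nfkbiz in CD8 T cells and the lower share of Rel in DN T cells were no longer separated.

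**Figure D3:**
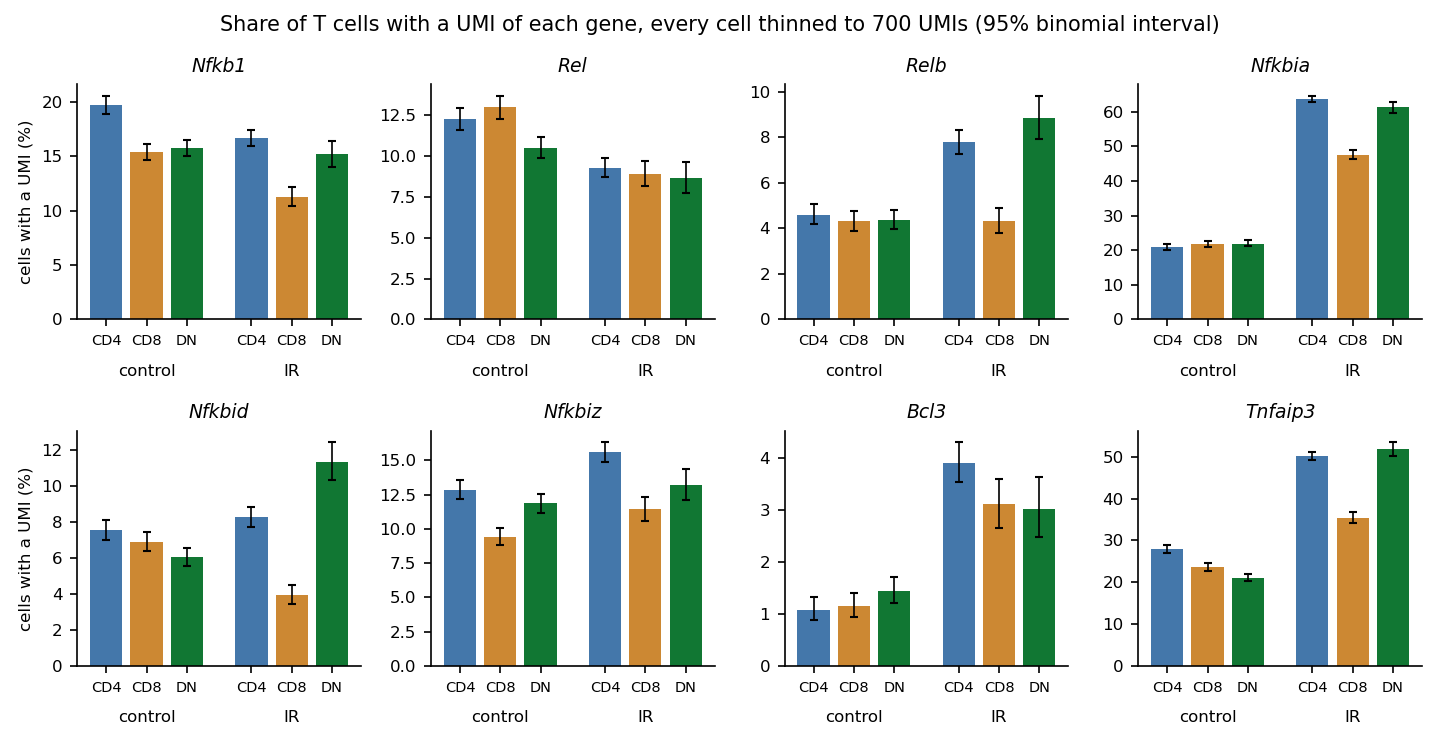
Percent of T cells with at least 1 UMI of each gene in the 6 libraries, every cell thinned to 700 UMIs (bars from 0, a scale of its own for each gene, error bars the exact 95% binomial interval). Nfkbia was found in 21.0% to 21.9% of control cells and in 47.6% to 63.7% of IR cells.

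The number of members detected in a cell, which follows in part from the shares above and was not set against other gene sets, was as follows. At 700 UMIs a control CD4, CD8 or DN T cell held UMIs of 1.07, 0.955 or 0.929 of the 8 genes on average, and an IR cell of 1.75, 1.26 or 1.73. The share of cells with 3 or more of the genes was 9.45%, 6.88% and 6.49% in control and 24.2%, 11.5% and 23.7% in the IR CD4, CD8 and DN libraries. Cells with none of the 8 genes made up 34.4%, 37.6% and 39.3% of control and 13.5%, 25.3% and 14.5% of IR cells.

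The higher Nfkbia level was not confined to one cluster of cells. The T cells fell into 21 clusters, most of them almost wholly of 1 condition, and levels were read in each cluster with at least 200 cells of a library. Nfkbia was 314 to 660 CPM over 6, 4 and 4 such clusters of the control CD4, CD8 and DN libraries and 862 to 2746 CPM over 4, 2 and 3 of the IR libraries. The lowest IR value was that of cluster 15 in CD8 T cells, above the highest control values of 659 CPM in CD4 and 660 CPM in CD8 T cells. Tnfaip3 spanned 289 to 803 CPM in control and 655 to 1525 CPM in IR clusters, so its ranges overlapped. Nfkb1 spanned 196 to 489 CPM and 146 to 346 CPM. Cluster 6 held 3301 IR CD4 and 3222 IR DN T cells, and in it Relb stood at 164 and 146 CPM, Nfkbid at 178 and 188 CPM and Nfkbia at 2528 and 2309 CPM. In cluster 21, which held 2781 IR CD4 T cells, Relb stood at 66.7 and Nfkbid at 59.7 CPM, close to the values of IR CD8 T cells, while Nfkbia stood at 2076 CPM.

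**Figure D4:**
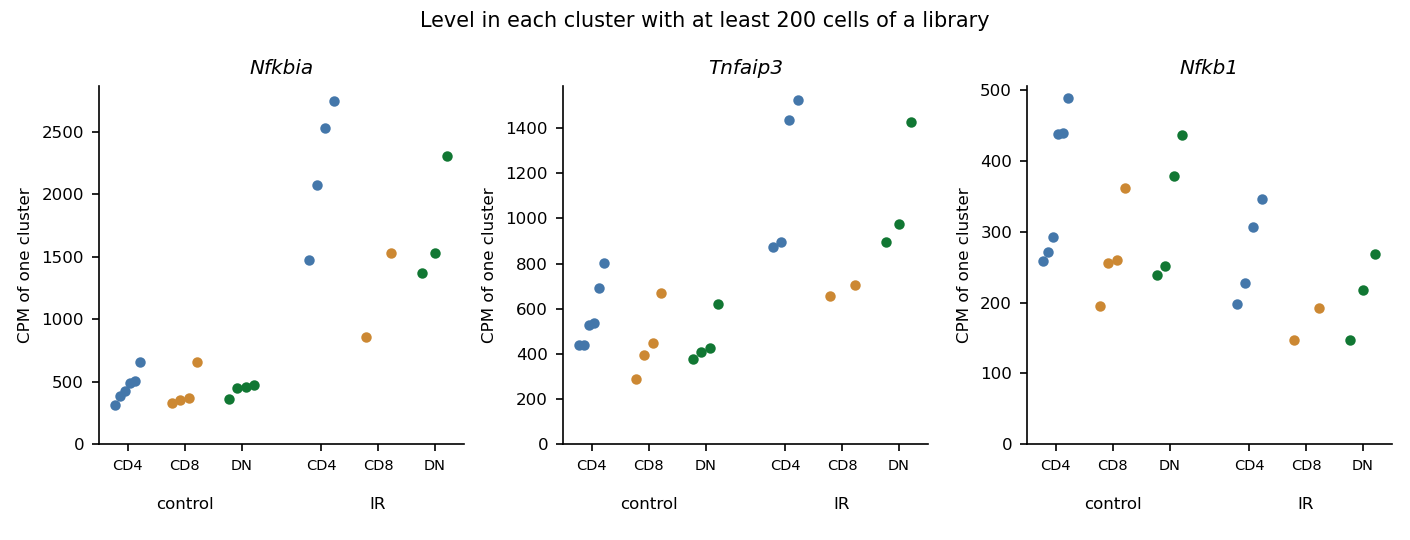
CPM of Nfkbia, Tnfaip3 and Nfkb1 in each cluster with at least 200 cells of a library (1 point per cluster and library, linear axes from 0). For Nfkbia every IR point (862 to 2746 CPM) lay above every control point (314 to 660 CPM), while the Tnfaip3 and Nfkb1 points of both conditions overlapped.

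Cells with a UMI of Ccr7, which guides naive and central memory T cells to lymph nodes, made up 7.51% of control CD4 and 16.8% of control CD8 T cells, and 20.1% and 37.5% in IR, unthinned. Within cells with a Ccr7 UMI the log2 ratio of IR to control for Nfkbia was 2.16 (2.09 to 2.23) in CD4 and 1.35 (1.29 to 1.41) in CD8 T cells, and within those without it was 2.42 (2.39 to 2.44) and 1.54 (1.49 to 1.59). The Nfkbia difference was thus seen on both sides of this split. Nfkbid was lower in cells with Ccr7 than in cells without it in each of the 4 libraries, at 83.3 against 124 CPM in control CD4, 80.5 against 113 in control CD8, 78.9 against 146 in IR CD4 and 47.7 against 66.4 CPM in IR CD8. In CD8 T cells its ratio of IR to control was -0.76 (-1.05 to -0.47) in cells with Ccr7 and -0.77 (-0.95 to -0.59) in cells without. Relb in IR CD4 T cells was 79.6 CPM with Ccr7 and 130 CPM without.

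CD4 cells with a UMI of Foxp3, the defining gene of regulatory T cells, numbered 342 in control and 309 in IR. They held more Bcl3 than other CD4 cells, at 31.3 against 17.7 CPM in control and 126 against 55.1 CPM in IR, a log2 ratio of 0.82 (0.44 to 1.18) and 1.19 (0.80 to 1.56). Rel, which regulatory T cells need to develop, was 251 against 194 CPM in control and 279 against 150 CPM in IR. The ratio of IR to control for Rel was 0.15 (-0.13 to 0.42) in cells with Foxp3 and -0.37 (-0.44 to -0.30) in cells without. Among DN T cells, those with a UMI of Klrb1c (NK1.1) and those without had alike Nfkbia levels, at 463 and 461 CPM in control and 2100 and 2153 CPM in IR. This split was unthinned. A Klrb1c UMI was held by 44.7% of control and 18.9% of IR DN T cells, though Klrb1c stood at 209 and 231 CPM. At IR depth a missing UMI does not show that Klrb1c was absent, so alike levels do not show that NK1.1 cells and other DN cells are alike.

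The immediate early gene list also stood higher in IR. In CD4, CD8 and DN T cells 6, 5 and 5 of 12 genes were higher by at least 2-fold and 0 lower. Its median log2 ratios were 1.06, 0.96 and 0.95. Over all genes 7.72%, 7.93% and 8.31% were higher and 15.1%, 17.7% and 11.3% lower, with medians of -0.26, -0.38 and -0.26. Immediate early genes respond to handling of cells as well as to signals. In T cells with no UMI of Fos, a gene of that list, the log2 ratio of Nfkbia was 2.58, 1.66 and 2.32 and that of Tnfaip3 was 1.33, 0.93 and 2.21 in CD4, CD8 and DN T cells, no smaller than in all cells. That of Bcl3 was smaller there, at 1.58, 1.12 and 0.84. Cells were split without thinning, and as 80.9% to 86.7% of cells in the control libraries and 65.1% to 72.5% in the IR libraries held a Fos UMI, the cells left differ in depth and make-up between the conditions. Fos itself was under 2-fold, at 0.48, 0.37 and 0.60 in CD4, CD8 and DN T cells. The split therefore need not remove the difference in the list genes that passed. Heat shock genes stood lower in IR, with 5 of 9 genes lower by at least 2-fold in each subset, beside the 15.1%, 17.7% and 11.3% of all genes. The part of handling in the member ratios was not tested.

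The next question was whether DN T cells differed from CD4 and CD8 T cells. The comparisons within a condition share the DN library. In control kidneys DN T cells differed little, and 0 of the 8 genes passed 2-fold in either direction, where 1.35% of 8859 genes were higher and 1.4% lower than in CD4 T cells, and 3.55% of 8969 were higher and 3.03% lower than in CD8 T cells. The log2 ratios of DN to CD4 ran from -0.42 (-0.44 to -0.39) for Tnfaip3 to 0.28 (0.16 to 0.40) for Bcl3, and those of DN to CD8 from -0.38 (-0.42 to -0.34) for Rel to 0.53 (0.40 to 0.67) for Bcl3. In IR kidneys, too, 0 of 8 passed 2-fold between DN and CD4 T cells, against 4.84% of 8899 genes higher and 2.46% lower, with ratios from -0.36 (-0.59 to -0.14) for Bcl3 to 0.40 (0.28 to 0.52) for Nfkbid.

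Against CD8 T cells of IR kidneys, DN T cells had a ratio above 1 for 8 of 8 genes, and 2 passed 2-fold, against 7.74% of 8985 genes higher. None was lower, against 4.21%. Nfkbid was 2.95-fold higher in IR DN than in IR CD8 T cells, a log2 ratio of 1.56 (1.38 to 1.74), and Relb was 2.19-fold higher, at 1.13 (0.95 to 1.32). Tnfaip3 followed at 0.93 (0.87 to 0.98), past 2-fold in 3 of 14 alternatives, Nfkbia at 0.73 (0.68 to 0.77) and Nfkb1 at 0.52 (0.40 to 0.64). Rel and Bcl3 had intervals that include 0 and were below 0 with TMM factors, at 0.06 (-0.09 to 0.20) and 0.02 (-0.25 to 0.29). The median of the 8 genes was 0.62 and that of all genes 0.10. With TMM factors, which moved the median of all genes in this comparison by -0.16, the ratio of Relb was 0.98, under the limit.

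**Figure D5:**
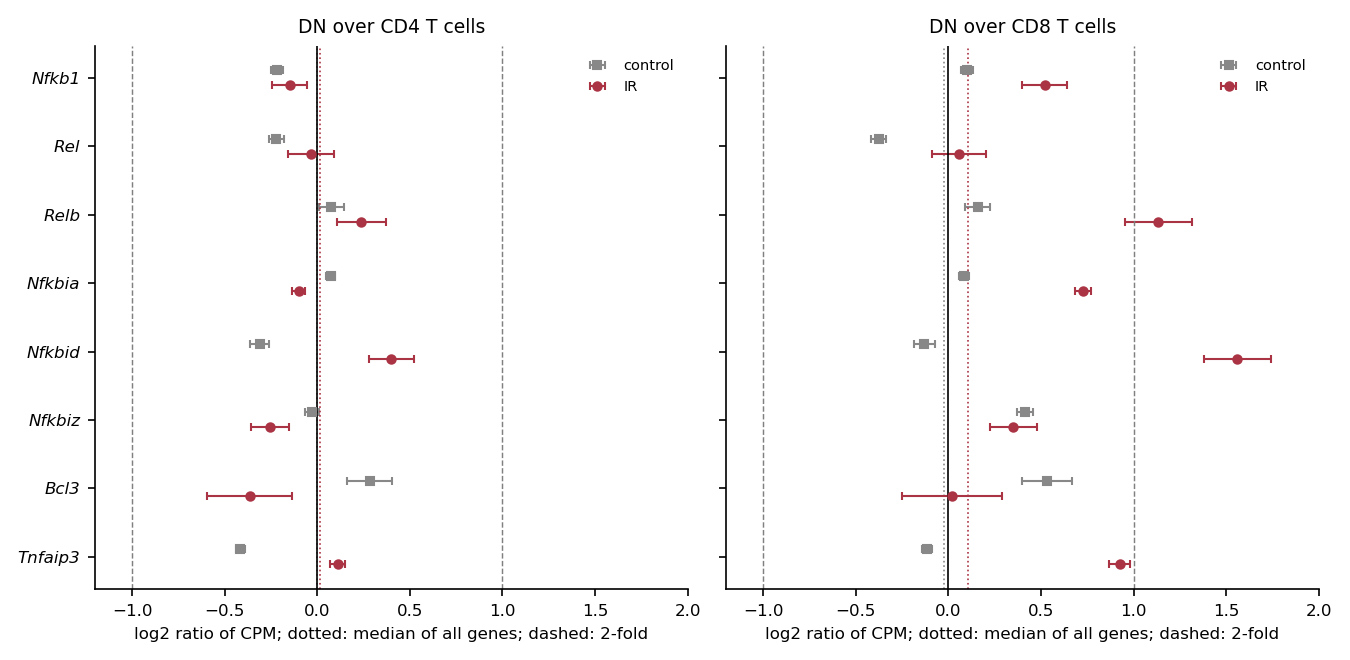
Log2 ratio of DN to CD4 (left) and DN to CD8 T cells (right) for the 8 genes, in control (grey squares) and IR (red circles) libraries, with exact 95% counting intervals, the median of all genes (dotted) and the 2-fold limits (dashed). Control values lay between -0.42 and 0.53, and in IR the DN to CD8 values reached 1.56 for Nfkbid and 1.13 for Relb.

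The rest of the pathway was read from lists of genes by role. Of the other subunits, Nfkb2, the partner of Relb in the noncanonical arm, stood at 40.5, 35.0 and 42.7 CPM in control and at 88.0, 37.6 and 121 CPM in the IR CD4, CD8 and DN libraries, so that like Relb it was higher in CD4 and DN and not in CD8 T cells. Its log2 ratio of IR to control was 1.12 (1.02 to 1.22) in CD4 T cells, with a 95% interval of 1.36 to 1.64 in DN T cells. Rela, which encodes p65, did not reach 2-fold in any subset and stood at 54.8, 49.7 and 52.8 CPM in control and 75.7, 50.4 and 73.4 CPM in IR. Neither of the other classical IκB genes reached 2-fold between IR and control in any subset, though Nfkbie was 59.3 CPM in IR DN and 28.2 CPM in IR CD8 T cells, a log2 ratio of 1.07 (0.79 to 1.35).

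Of the 5 IKK kinase genes 0 passed in CD4 and DN T cells and 1, Tbk1, was lower in CD8 T cells at -1.05 (-1.24 to -0.86). Among all genes in CD4, CD8 and DN T cells, 7.72%, 7.93% and 8.31% were higher and 15.1%, 17.7% and 11.3% lower. The IKK count in CD8 T cells lies near its share. Prkcq, a kinase of the T cell receptor signal to IKK, was lower by at least 2-fold in each subset. It stood at 572, 615 and 609 CPM in control and at 263, 300 and 231 CPM in IR. Bcl10, an adaptor of the same signal, was higher at 193 against 88.3 CPM in CD4 T cells.

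Of the 3 genes of the noncanonical arm, 1, Traf3, was lower in CD4 T cells at -1.11 (-1.19 to -1.03) and in CD8 T cells at -1.53 (-1.69 to -1.37), with 0 past 2-fold in DN T cells. By the same rule 15.1%, 17.7% and 11.3% of all genes were lower in CD4, CD8 and DN T cells. Of 12 partners of A20 and other brakes, 11 were measured at 10 CPM, and Zc3h12a, which encodes the RNase Regnase-1, was higher in CD4 and DN T cells, with 62.4, 56.0 and 51.3 CPM in control and 136, 108 and 129 CPM in the IR CD4, CD8 and DN libraries. Otud7b was lower in all 3 subsets and Cyld, a deubiquitinase, was lower in CD8 T cells at -1.13 (-1.23 to -1.04). Of the 8 receptors on the list that activate NF-κB, 6 were measured at 10 CPM in CD4, 5 in CD8 and 6 in DN T cells. Of those, 2, 0 and 2 were higher, beside 7.72%, 7.93% and 8.31% of all genes. Tnfrsf9, which encodes the costimulatory receptor 4-1BB, was one of the 2 in both CD4 and DN T cells, at 103 against 36.2 CPM in CD4 and 101 against 32.8 CPM in DN T cells. Tnfrsf4, which encodes OX40, was the other, at 160 against 60.1 CPM in CD4 and 19.2 against 7.47 CPM in DN T cells.

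Of 18 NF-κB target genes, 4 were higher and 1 lower of 17 measured in CD4, 2 higher and 2 lower of 15 in CD8, and 7 higher and 0 lower of 18 in DN T cells. Over all genes 7.72% were higher and 15.1% lower in CD4, 7.93% and 17.7% in CD8, and 8.31% and 11.3% in DN T cells, and the CD8 counts lie near these shares. Their median log2 ratios were 0.68, 0.03 and 0.91, in the same order of subsets as the medians of the 8 genes. Gadd45b, a stress-response gene, was higher in each subset, with 139, 142 and 111 CPM in control and 727, 437 and 594 CPM in the IR CD4, CD8 and DN libraries. Birc3, which encodes the apoptosis inhibitor cIAP2, was 258 against 116 CPM in DN T cells, and Bcl2a1b, of the anti-apoptotic A1 family with near-identical copies between which reads cannot be divided with certainty, was 553 against 222 CPM. Bcl2a1b also passed in CD4 T cells, at 494 against 245 CPM, and the cytokine gene Csf2 (GM-CSF) passed in DN T cells, at 75.0 against 27.7 CPM. Tnf was lower in CD8 T cells, at 54.8 against 132 CPM, where Ier3, an early response gene, was higher at 53.4 against 14.6 CPM.

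Against IR CD8 T cells, IR DN T cells were higher by at least 2-fold for 5 of the 6 measured receptor genes and for 6 of the 18 target genes, with 2 target genes lower, where 7.74% of all genes were higher and 4.21% lower. Tnfrsf18, which encodes GITR, stood at 370 against 114 CPM and Il18r1, a chain of the IL-18 receptor, at 264 against 110 CPM. Csf2 stood at 75.0 against 2.64 CPM, the latter 17 UMIs, Birc3 at 258 against 113 CPM, Bcl2a1b at 553 against 210 CPM and the anti-apoptotic gene Bcl2l1 at 67.9 against 31.8 CPM. Malt1, the protease that works with Bcl10, stood at 414 against 194 CPM and Traf3 at 108 against 53.1 CPM. The lower targets were the chemokine genes Ccl3, at 13.7 against 86.9 CPM, and Ccl4, at 123 against 728 CPM. In the 3 other comparisons of DN T cells no list gene upstream of the targets, receptors apart, reached 2-fold at 10 CPM or more in the higher library. Tnfrsf4 was lower in DN than in CD4 T cells in both conditions, at 7.47 against 60.1 CPM in control and 19.2 against 160 CPM in IR, while Ccl4 was higher, at 81.7 against 35.9 CPM and 123 against 38.3 CPM. Csf2 was higher in IR DN than in IR CD4 T cells, at 75.0 against 23.1 CPM. Between control DN and CD8 T cells, Tnfrsf18 was higher in DN at 212 against 89.8 CPM, and Ccl3, Ccl4 and Traf1, an adaptor of TNF receptors, were lower, the last at 108 against 225 CPM.

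Across the 6 libraries the pattern most like that of Relb among 5021 genes was that of Nfkb2, with a Pearson r of 0.998 between log2(CPM + 1) values. Next came Ccrl2 (0.991), at 16.3, 9.59 and 21.8 CPM in control and 86.0, 13.0 and 178 in IR, and Bcl2a1b (0.990). For Nfkbia the nearest genes were Ftl1 (0.998), Ramac (0.996) and Atp6v1g1 (0.996), and for Tnfaip3 Dhx40 (0.993), Ramp3 (0.993) and Nr4a3 (0.990). For Bcl3 they were Tmsb4x (0.994), Prorsd1 (0.990) and Gadd45a (0.988). Nfkb1 was nearest to Gpr132 (0.995), Poldip3 and Itgav (both 0.993), Rel to N4bp2l1 (0.995), Rassf1 (0.983) and Atg16l2 (0.973), Nfkbid to Eed (0.980), Rab21 (0.973) and Wac (0.971), and Nfkbiz to Hsbp1 (0.987), Orai1 (0.983) and Atf1 (0.973). Between members r was 0.96 for Nfkbia with Bcl3 and with Tnfaip3, 0.90 for Relb with Tnfaip3 and -0.91 for Rel with Bcl3. These are descriptions over 6 points that share condition, depth and software version.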

How the data were processed

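The 6 libraries were grouped by condition and sorted subset as their titles give them. The deposited matrices hold raw UMI counts per gene and barcode, which the authors obtained by running Cell Ranger on reads of 10x 3' v3.1 libraries, with no normalization. File headers name version 5.0.1 for control and 6.0.1 for IR libraries, while the labels name 6.0.1 for all.

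Barcodes with at least 500 features and at most 20% mitochondrial UMIs were kept, the 5% with the most UMIs per library were removed as likely doublets (no doublet caller was run), and 2 clusters in which under 50% of cells held a Cd3 UMI were removed (scanpy 1.11.5, 2000 variable genes, 30 components, 15 neighbours, Leiden resolution 1). Mitochondrial and ribosomal protein genes and Malat1, 104 features, were left out of totals; they took 21.0% to 26.6% of UMIs in control and 30.5% to 45.3% in IR libraries. Counts were pooled per library and scaled to CPM. With 1 library per group no test was run and no p-value is given. A fit of condition with subset as a block would take the 3 subsets as replicates, and whether they came from separate animals is not given. A gene was called at 2-fold and at least 10 CPM in the higher library. The call was tested on simulated Poisson counts, which hold counting error only and no differences between animals, sorts or runs. TMM factors came from edgeR 4.0.16. Gene models matched 99.8% of features. For likeness, log2(CPM + 1) was used over genes of at least 50 CPM in 1 library.

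Genes named were the 8 members, list genes past 2-fold at 50 CPM or more (up to 4 per list and direction), the 3 genes most like each member and the sort genes. Rela and single marker genes are named outside that rule, after their values were seen. The members and lists were chosen with earlier results of these data known. Alternatives covered scaling, cell filters, thinning, CPM limits, intronic length and cells left out, and the split by Fos was added after the data were seen. Results for some items withheld for evaluation are not reported here.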

Additional observations from a re-analysis of the deposited data

Results flagged for a closer look

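Nfkbid is given here because its difference between IR and control ran in opposite directions between subsets. Its log2 ratio of IR to control was -0.84 (95% counting interval -0.99 to -0.69) in CD8 T cells and 0.85 (0.74 to 0.96) in DN T cells, with 0.14 (0.07 to 0.22) in CD4 T cells, where it was -0.21 with all features in the totals and to -0.09 after centring by intronic length. The levels behind these ratios were 106 and 59.6 CPM in control and IR CD8, 97.3 and 176 CPM in DN, and 121 and 133 CPM in CD4 T cells. With 1 library per group the difference between subsets was not tested. Over the 14 alternatives the CD8 value ranged from -1.26 to -0.74 and the DN value from 0.68 to 0.96. Groups of 1 library allow no check for libraries that stand apart.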

How the results depend on the processing

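Each of the 56 member ratios was computed under 14 alternatives. No ratio past 2-fold changed sign, with 591 values that stayed within the counting interval of the reported ratio and 193 that did not. Alternatives that changed only the CPM limit could not move a ratio, and their values stand among the 591. The counts of alternatives given here take the ratio alone. Bcl3 in CD8 and DN T cells is thus counted also where a minimum of 50 CPM dropped it. The ratios of Nfkbia in the 3 subsets, Bcl3 in CD4 and CD8 and Tnfaip3 in DN T cells stayed past 2-fold in all 14. Tnfaip3 in CD4 T cells passed in 13 and stood at 0.87 with all features in the totals, and Bcl3 in DN T cells passed in 7 of 14 (0.84 to 1.19). Relb in DN T cells, at 0.997, passed in 6 of 14 (0.82 to 1.24). For DN over CD8 T cells in IR the count of higher members was 1 with TMM scaling and 4 with the removed features kept in the totals, instead of 2. Tnfaip3 there, at 0.93, passed in 3 of 14. Keeping the removed features, which moved the median of all genes by -0.45 in CD8, -0.38 in CD4 and -0.19 in DN T cells, also gave 2 members lower in IR CD8 T cells instead of 0 (Rel at -1.01 and Nfkbid at -1.26). A minimum of 50 CPM dropped Bcl3 and left 1 member higher in IR CD8 T cells instead of 2 and 2 in IR DN T cells instead of 3. For shares of cells, thinning to 500 UMIs gave 0 members lower in IR DN T cells instead of 1 and 3 higher in IR CD8 T cells instead of 4. Without thinning, 1, 0 and 0 members had a higher and 6, 8 and 8 a lower share in IR CD4, CD8 and DN T cells, whose cells held fewer UMIs. No paired analysis was run: each subset had 1 library per condition, and a fit over the 3 subsets, with the subset as a block, was left out.

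For pooled levels depth limits the IR DN library most, where 3 counts of the pooled total are 0.684 CPM and Bcl3 rests on 196 UMIs. For shares of cells it limits IR CD8 most, with a median of 934.5 retained UMIs per cell and 927 cells left out at 700 UMIs. One library per group leaves differences between animals, sorts and runs unmeasured. Fewer cells with a transcript and less transcript per cell cannot be told apart.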

Other observations

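Values that belong to no comparison are those of the barcodes set aside as non-T. In the 303 IR barcodes of this kind Tnfaip3 stood at 41.3 CPM (24.1 to 66.1), Rel at 9.72 (2.65 to 24.9), Nfkbid at 7.29 (3 UMIs) and Relb at 41.3 (24.1 to 66.1), and in the 35 control barcodes at 174 (106 to 269), 95.7 (47.8 to 171), 60.9 (24.5 to 125) and 8.70 (0.22 to 48.5). The intervals of the conditions did not overlap for Tnfaip3, Rel and Nfkbid, each lower in IR. All control barcodes lay in cluster 11, while the IR barcodes lay in clusters 11 and 22, the latter with 0 control barcodes. The conditions thus hold unlike mixtures here. Which cells these barcodes hold was not examined.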
